A study of Homo sapiens with 6 samples.

Results

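The mRNA levels of keratins of the suprabasal epidermis, of mucosa and of simple epithelia were compared between 3 RNA-seq libraries of HaCaT cells with IQGAP2 knocked down by a short hairpin RNA and 3 libraries of wild-type control HaCaT cells. The keratins were chosen by name from a list of 10: KRT1, KRT2, KRT10 and KRT80 of the suprabasal epidermis, KRT4 and KRT13 of mucosa, and KRT7, KRT8, KRT18 and KRT19 of simple epithelia. The deposited table held 12829 genes and had rows for 9 of the 10, KRT2 being not analysed here. HaCaT is an immortalised, aneuploid human keratinocyte line, and all libraries came from cells grown in DMEM with fetal bovine serum. Expression was given as FPKM, in which fragments are divided by gene length and by the size of the library. IQGAP2 is a scaffold protein that binds actin and calmodulin, and the study's title names proliferation and the mTOR pathway. The labels call the libraries biological replicates without saying whether each was a culture of its own, so the spread behind every p-value may be a technical one. They name neither the number of hairpins nor a non-targeting hairpin in the control cells.

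Keratins are the intermediate filament proteins of epithelia, and each filament is built from heterodimers of an acidic type I and a basic type II keratin. Basal keratinocytes make KRT5 and KRT14, and cells that leave the basal layer of the epidermis switch to KRT1 and KRT10. In the mouth and oesophagus the suprabasal pair is KRT4 and KRT13. Single-layered epithelia such as those of liver, gut and glands use KRT8 and KRT18, and some of them also KRT7 or KRT19. Keratinocyte lines in culture often express keratins of several of these programmes. Among the 9 keratins, KRT1, KRT4, KRT7, KRT8 and KRT80 are type II and KRT10, KRT13, KRT18 and KRT19 are type I.

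Promoter sequence from RefSeq, covering 250 bases before and 50 bases after the annotated start, was at hand for KRT10 and KRT4, which both rose in the knockdown, and for KRT8. The windows of KRT10 and KRT4 are shown 5′ to 3′ on the minus strand of GRCh38.p14, at chr17:40822565-40822864 and chr12:52814067-52814366, because these are suprabasal keratins of skin and of mucosa that moved in the same direction. Capitals mark a match to TATAAA, the core of the TATA box.
KRT10: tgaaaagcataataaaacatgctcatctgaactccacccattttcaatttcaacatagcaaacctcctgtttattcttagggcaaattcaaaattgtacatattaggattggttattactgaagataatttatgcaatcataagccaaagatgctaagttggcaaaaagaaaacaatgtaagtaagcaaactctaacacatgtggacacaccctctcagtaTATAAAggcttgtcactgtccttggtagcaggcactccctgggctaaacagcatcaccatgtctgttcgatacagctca
KRT4: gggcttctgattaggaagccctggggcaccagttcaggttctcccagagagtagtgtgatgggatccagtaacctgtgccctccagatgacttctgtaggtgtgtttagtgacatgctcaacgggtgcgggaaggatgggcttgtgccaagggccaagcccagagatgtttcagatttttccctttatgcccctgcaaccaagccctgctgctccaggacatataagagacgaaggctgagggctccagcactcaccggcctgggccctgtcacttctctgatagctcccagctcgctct
The search also covered the AP-1 motif TGANTCA, the GC box GGGCGG and the palindromic motif of Grainyhead-like factors AACCGGTT, on both strands. KRT10 held 1 match, a TATAAA whose first base lay at -29 from the annotated start, and the windows of KRT4 and KRT8 held none. Only exact matches were counted. The KRT4 window holds TATAAG, which differs from TATAAA in 1 letter, with its first base also at -29 from its annotated start. TATAAA was present in 11.5% of 35116 promoter windows of the same length, TGANTCA in 7.71%, GGGCGG in 44.95% and the Grainyhead-like motif in 0.13%. The RefSeq start lay 19 bases from the start of the principal GENCODE transcript for KRT10, 435 bases for KRT4 and 23373 bases for KRT8, so the windows of KRT4 and KRT8 do not hold that start, and the KRT8 window, the farther one, is not printed.

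All 9 keratins differed between the groups: 5 were higher and 4 lower in the knockdown libraries. The suprabasal keratins KRT1, KRT10 and KRT80 and the mucosal KRT4 rose, as did the simple epithelial KRT7. The mucosal KRT13 and the simple epithelial KRT8, KRT18 and KRT19 fell. Of all 11214 genes tested, 57.4% passed the same test, 29.5% being higher and 27.8% lower, in limma on log2(FPKM + 1) with a Benjamini-Hochberg adjusted p under 0.05. The values of the groups did not overlap for any of the 9 keratins, against 65.1% of all genes tested, 33.7% without overlap and higher and 31.4% without overlap and lower. Every keratin had a mean above the filter of 0.5 FPKM in each group. In bulk RNA, a change in the number of cells that express a keratin and a change in the RNA per cell cannot be told apart.

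**Figure D1:**
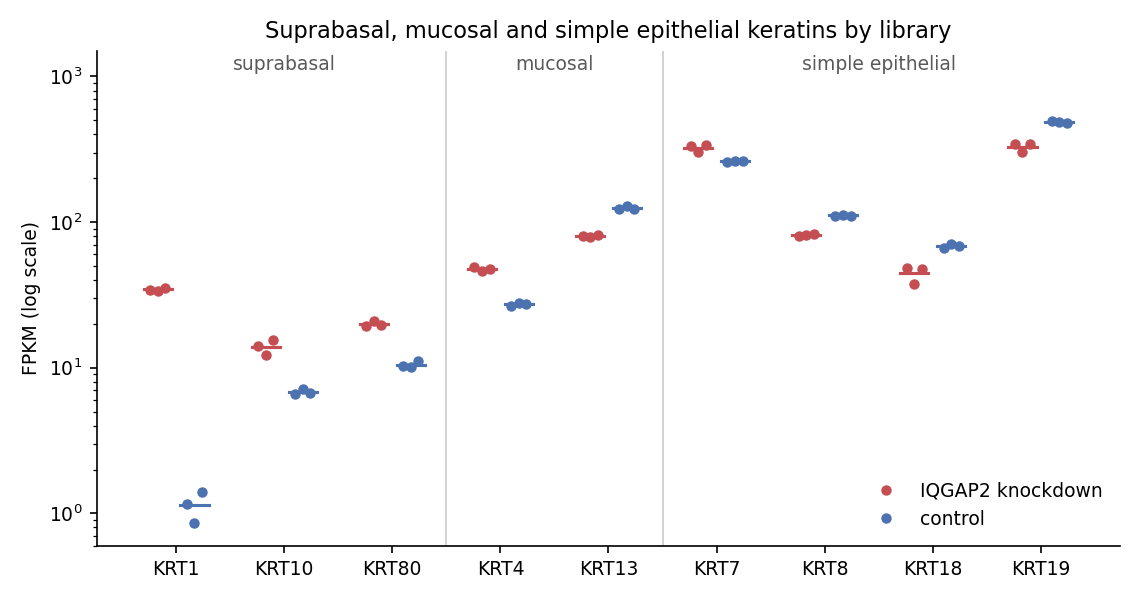
FPKM (log scale) of the 9 keratins in each library, with a line at the group mean; knockdown libraries are red and control libraries blue (n = 3 each). KRT1 averaged 34.4 FPKM in the knockdown and 1.14 FPKM in control libraries, the largest separation, and no keratin had overlapping groups.

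The libraries behind these values held between 12901037 and 15360759 recovered reads in the knockdown group and between 13957447 and 15122470 in the control group. IQGAP2 was at 0.0196, 0.0328 and 0.0182 FPKM in knockdown replicates 1 to 3 and at 0.200, 0.198 and 0.190 FPKM in control replicates 1 to 3. On the log2(FPKM + 1) scale its change was -0.22 (SE 0.072, limma adjusted p = 0.0217), while a two-sided exact permutation of the 6 libraries gave p = 0.1, its lower limit with 3 against 3. These values rest on 2, 4 and 2 reads in knockdown replicates 1 to 3 and 24, 22 and 21 reads in control replicates 1 to 3, and without knockdown replicate 3 or any 1 control library the limma adjusted p missed 0.05, at up to 0.0556. Knockdown replicate 2 stood apart, with a chi-square of gene reads divided by its degrees of freedom of 11.3 and 10.5 against the other knockdown libraries, where all other pairs within a group gave 2.10 to 2.49. Of all genes tested 57.4% passed the test, 29.5% being higher and 27.8% lower. Keratinocyte markers summed to between 4108 and 4507 FPKM in the knockdown and between 4077 and 4184 FPKM in control libraries. Most of this sum lay in KRT5 and KRT14, whose means moved in opposite directions. KRT5 averaged 1483 FPKM in the knockdown and 1149 FPKM in control libraries. KRT14 averaged 2313 FPKM in the knockdown and 2575 FPKM in control libraries. All 7 markers of that list were present and 57.1% passed, 4 being higher and none lower. The largest changes among them were those of the desmosomal cadherin DSG3, at 106 ± 8.11 FPKM in the knockdown and 50.3 ± 1.08 FPKM in control libraries, and of the integrin ITGA6, at 139 ± 14.3 FPKM in the knockdown and 74.7 ± 1.51 FPKM in control libraries (SD, n = 3 each; limma adjusted p = 5.19e-07 for DSG3 and 4.86e-06 for ITGA6). Of the lists for other cells, 3 of 7 fibroblast, 2 of 7 melanocyte, 2 of 7 Merkel cell and 3 of 7 immune and endothelial markers had rows. The fibroblast markers summed to 1.56 to 1.91 FPKM in the knockdown and 3.46 to 3.79 FPKM in control libraries, and the part of this in the keratin results was not tested. LUM, which encodes the matrix proteoglycan lumican, carried that difference, at 0.268 ± 0.134 FPKM in the knockdown and 2.21 ± 0.346 FPKM in control libraries (SD, n = 3 each, limma adjusted p = 6.40e-06). It rests on 14, 11 and 5 reads in the knockdown and 104, 83 and 70 in control libraries. LUM passed the filter of 0.5 FPKM only through the control libraries. The fibroblast collagens COL1A2 and COL3A1 were not analysed here, and the melanocyte, Merkel cell and immune and endothelial lists each summed to at most 1.61 FPKM in any library, no tested marker of theirs passing the test.

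KRT1 (ENSG00000167768, GRCh38 chromosome 12, 52674736 to 52680407, minus strand) is the type II keratin of the spinous and granular layers, and its mutations cause epidermolytic ichthyosis. It was at 34.3, 33.8 and 35.2 FPKM in knockdown replicates 1 to 3, against 1.16, 0.853 and 1.40 FPKM in control replicates 1 to 3. All knockdown libraries were high and close together, and the control libraries were low, resting on 44, 30 and 49 reads against 1110, 1302 and 1220 reads in the knockdown. KRT1 was thus 30.3-fold higher in the mean. Its change on the log2(FPKM + 1) scale was 4.06 (95% interval 3.86 to 4.25, limma adjusted p = 1.45e-09). On that scale this was the highest rise of all 11214 genes tested.

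KRT10 (ENSG00000186395, chromosome 17, 40818117 to 40822595, minus strand), the type I partner of KRT1, changed in the same direction by much less. It stood at 14.2, 12.2 and 15.6 FPKM in knockdown replicates 1 to 3 and at 6.55, 7.17 and 6.67 FPKM in control replicates 1 to 3. Knockdown replicate 2 was the lowest of its group and still above every control library. KRT10 shares 56 exonic bases with TMEM99 on the opposite strand. The mean was 2.06-fold higher in the knockdown (log2 change 0.94, 95% interval 0.75 to 1.12, limma adjusted p = 1.22e-05), and 2.19-fold without knockdown replicate 2.

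The third suprabasal keratin, KRT80 (ENSG00000167767, chromosome 12, 52168996 to 52192000, minus strand), is a type II keratin found near desmosomes and in the cortical filaments of more differentiated cells. Its values were 19.3, 20.8 and 19.6 FPKM in knockdown replicates 1 to 3 and 10.3, 10.2 and 11.1 FPKM in control replicates 1 to 3. Here knockdown replicate 2 was the highest library. KRT80 was 1.89-fold higher in the knockdown (log2 change 0.86, 95% interval 0.74 to 0.98, limma adjusted p = 1.68e-06). Together the 3 suprabasal keratins made up 1.02% ± 0.0448 of the FPKM of all keratin rows in knockdown and 0.282% ± 0.0123 in control libraries (SD, n = 3 each).

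The mucosal pair split. KRT4 (ENSG00000170477, chromosome 12, 52806549 to 52814551, minus strand), the type II keratin of the suprabasal layers of oral and oesophageal mucosa, was at 49.1, 45.9 and 47.5 FPKM in knockdown replicates 1 to 3, against 26.5, 27.8 and 27.5 FPKM in control replicates 1 to 3. It rose 1.74-fold (log2 change 0.78, 95% interval 0.67 to 0.88, limma adjusted p = 1.09e-06). Its type I partner KRT13 (ENSG00000171401, chromosome 17, 41500981 to 41505705, minus strand) was at 80.3, 78.8 and 81.3 FPKM in knockdown replicates 1 to 3 and at 124, 129 and 122 FPKM in control replicates 1 to 3. All knockdown libraries lay below all control libraries. The KRT13 mean in the knockdown was 0.641 times that in control libraries (log2 change -0.64, 95% interval -0.73 to -0.54, limma adjusted p = 2.51e-06). In GENCODE v29 KRT13 shares 476 exonic bases with a gene on the opposite strand, and strand use in counting is not given in the sources used here, so reads of the 2 genes may be mixed. Mutations of KRT4 or KRT13 are known as causes of white sponge nevus, a disorder of the oral mucosa.

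Among the simple epithelial keratins, KRT7 moved against the other 3. KRT7 (ENSG00000135480, chromosome 12, 52232520 to 52252186, plus strand), a type II keratin of ducts and glands, was at 332, 301 and 337 FPKM in knockdown replicates 1 to 3, against 257, 264 and 261 FPKM in control replicates 1 to 3. Knockdown replicate 2 was nearest to the control libraries. The rise was 1.24-fold (log2 change 0.31, 95% interval 0.18 to 0.43, limma adjusted p = 9.38e-04), and 1.28-fold without that library. The log2 change was 0.47 after scaling to one FPKM total and 0.52 with quantile normalization. KRT7 shares 282 exonic bases with its antisense gene KRT7-AS.

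KRT19 (ENSG00000171345, chromosome 17, 41523617 to 41528308, minus strand) is a type I keratin that lacks most of the tail domain and pairs with KRT7 or KRT8 in simple epithelia. It was at 345, 302 and 342 FPKM in knockdown replicates 1 to 3, against 494, 484 and 477 FPKM in control replicates 1 to 3. The groups were far apart relative to their spread. In the knockdown the mean was 0.681 times that of the control libraries (log2 change -0.56, 95% interval -0.69 to -0.42, limma adjusted p = 4.54e-05), and 0.709 times without knockdown replicate 2. With quantile normalization the log2 change was -0.30.

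KRT8 and KRT18 are the first keratins made in the embryo and the keratin pair of hepatocytes. Both fell. KRT8 (ENSG00000170421, chromosome 12, 52897187 to 52949954, minus strand, type II) was at 80.6, 81.7 and 82.4 FPKM in knockdown replicates 1 to 3 and at 111, 112 and 111 FPKM in control replicates 1 to 3. This was the tightest of the 9, with a coefficient of variation of 1.16% in knockdown and 0.634% in control libraries. KRT8 stood at 0.734 times the control level (log2 change -0.44, 95% interval -0.53 to -0.35, limma adjusted p = 1.54e-05), and its log2 change was -0.28 after scaling to one FPKM total.

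KRT18 (ENSG00000111057, chromosome 12, 52948871 to 52952901, plus strand), the type I partner, was at 48.7, 37.6 and 47.8 FPKM in knockdown replicates 1 to 3, against 66.6, 70.7 and 68.9 FPKM in control replicates 1 to 3. Knockdown replicate 2 was well below the others, so KRT18 had the widest spread in the knockdown group, with a coefficient of variation of 13.9% against 3.00% in control libraries. The mean was 0.650 times the control level (log2 change -0.62, 95% interval -0.81 to -0.43, limma adjusted p = 2.02e-04), and 0.702 times without knockdown replicate 2. KRT8 and KRT18 lie side by side on opposite strands and share 525 exonic bases in GENCODE v29. That annotation also holds 50 pseudogenes named after KRT8, 67 after KRT18 and 5 after KRT19, and how reads of these copies were divided is not given in the sources used here, so these levels are uncertain.

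**Figure D2:**
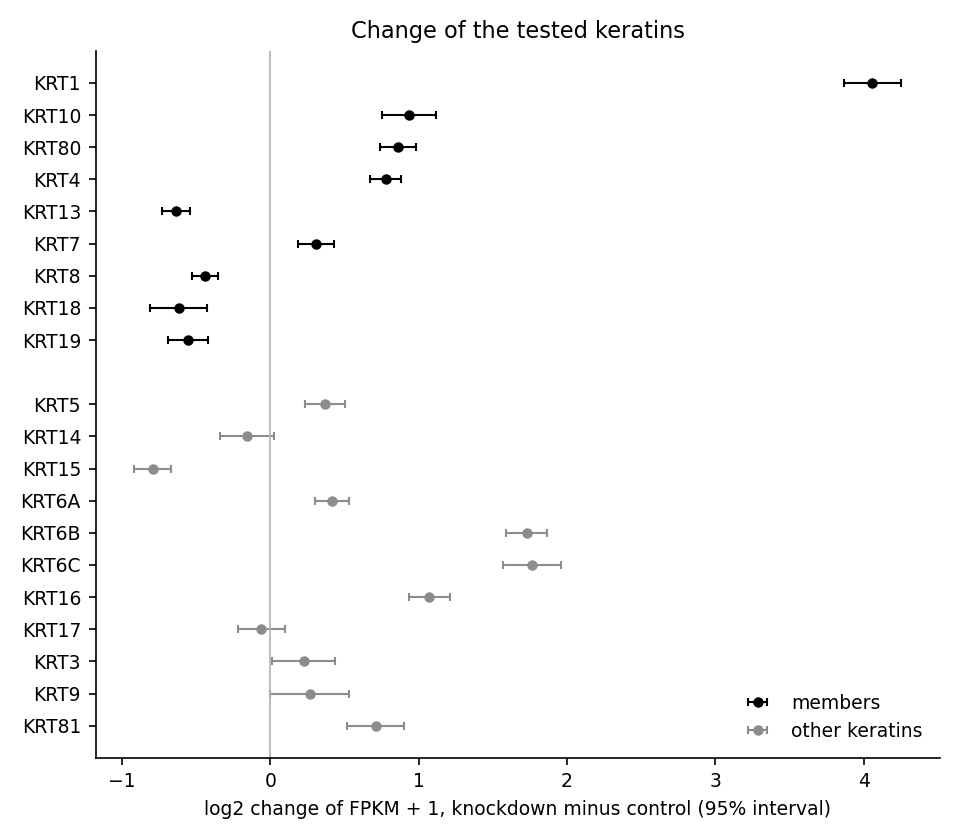
Log2 change of FPKM + 1, knockdown minus control, with its 95% limma interval, for the 9 keratins (black) and the 11 other keratins above 0.5 FPKM (grey). KRT1 stands at 4.06, KRT10, KRT80 and KRT4 lie between 0.78 and 0.94, and KRT13, KRT8, KRT18 and KRT19 lie between -0.64 and -0.44.

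Because a filament needs partners of both types, the ratio of type II to type I FPKM was taken within each library for 4 pairs. These ratios are free of the scaling between libraries, depend on the gene lengths used by the authors and are given without a test. KRT1 over KRT10 was 2.42, 2.78 and 2.26 in knockdown replicates 1 to 3, against 0.177, 0.119 and 0.210 in control replicates 1 to 3, so that the more abundant partner was KRT1 in the knockdown and KRT10 in the control libraries. KRT4 over KRT13 was 0.611, 0.582 and 0.585 in knockdown libraries and 0.214, 0.215 and 0.225 in control libraries. KRT7 over KRT19 was 0.961, 0.995 and 0.984 in knockdown libraries, close to equal FPKM, and 0.521, 0.546 and 0.547 in control libraries. Per base of the principal transcript its mean was 1.33 in knockdown and 0.730 in control libraries, so the near-equality holds for FPKM only. For these 3 pairs the groups did not overlap.

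The KRT8 over KRT18 ratio overlapped between the groups, at 1.66, 2.17 and 1.72 in knockdown replicates 1 to 3 and 1.66, 1.58 and 1.61 in control replicates 1 to 3. Per base of the principal transcript this ratio averaged 3.05 in knockdown and 2.66 in control libraries. Its log2 shift was 0.18 with all libraries and 0.06 without knockdown replicate 2, against 3.92 for KRT1 over KRT10, 1.44 for KRT4 over KRT13 and 0.86 for KRT7 over KRT19.

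**Figure D3:**
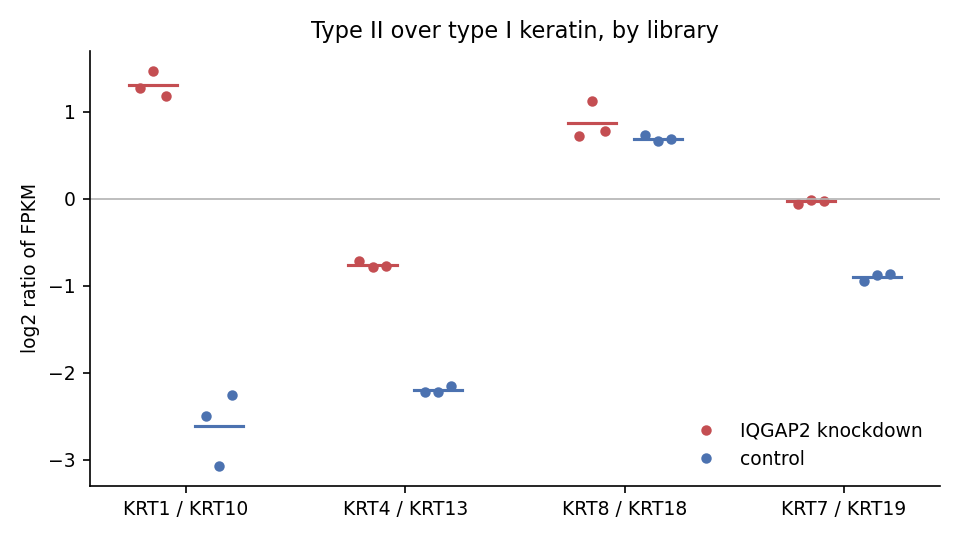
Log2 ratio of type II to type I FPKM in each library for 4 keratin pairs, with a line at the group mean; knockdown libraries are red and control libraries blue (n = 3 each). The KRT1 / KRT10 ratio averaged 2.49 in knockdown and 0.169 in control libraries on the linear scale, and the KRT8 / KRT18 libraries overlap.

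Summed by role, the suprabasal members stood at 68.3 ± 1.83 FPKM in the knockdown and 18.4 ± 0.597 FPKM in control libraries. The mucosal members summed to 128 ± 2.57 FPKM in the knockdown and 152 ± 4.17 FPKM in control libraries, and the simple epithelial members to 779 ± 49.6 FPKM in the knockdown and 925 ± 7.39 FPKM in control libraries (SD, n = 3 each). All keratin rows together were at 6683 ± 374 FPKM in the knockdown and 6543 ± 72.6 FPKM in control libraries. As a share of all FPKM in a library, the keratin rows held 2.74% ± 0.0682 in knockdown and 2.39% ± 0.0337 in control libraries, without overlap. The keratin sums themselves overlapped between the groups. The FPKM total that divides them was lower in the knockdown, at 234624 to 248082 against 271372 to 274709 in control libraries. After scaling to one FPKM total, the log2 change of the mucosal sum was -0.088 against -0.26 as deposited, and that of the simple epithelial sum -0.083 against -0.25.

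By type, more type II than type I keratins were higher. Of the 9 members, 4 of 5 type II rose and 1 fell, while 1 of 4 type I rose and 3 fell. Of all keratins tested, 9 of 11 type II rose and 1 fell, and 2 of 9 type I rose and 4 fell, against 29.5% higher and 27.8% lower over all genes; with quantile normalization 4 type I keratins were higher and 4 lower. Of the type II keratins that rose, KRT6C passed the filter only through the knockdown libraries, its control mean being 0.430 FPKM. The summed FPKM of type II over that of type I was 0.746, 0.816 and 0.724 in knockdown replicates 1 to 3, against 0.508, 0.505 and 0.526 in control replicates 1 to 3. Most of this sum lies in other keratins: the basal and stress keratins made up 85.2% ± 0.0879 of the keratin FPKM in the knockdown and 83.1% ± 0.0994 in control libraries, and the 9 keratins 14.6% ± 0.0896 in knockdown and 16.8% ± 0.0930 in control libraries (SD, n = 3 each).

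By chromosomal order, the keratins that passed the test as lower lay next to each other among the rows of the table. On chromosome 12, where the type II genes and KRT18 lie, KRT8 and KRT18 at one end of the order were the only keratins that fell, and no tested keratin between KRT80 and KRT4 did. On chromosome 17, KRT13, KRT15 and KRT19 stand next to each other and all fell, with KRT15, a keratin of basal and hair follicle cells, at 76.8 ± 5.81 FPKM in the knockdown and 133.6 ± 1.18 FPKM in control libraries (SD, n = 3 each; limma adjusted p = 3.32e-06). KRT14, the basal type I keratin, lies apart from these and had a log2 change of -0.16 that did not pass (limma adjusted p = 0.117), although its groups did not overlap, at 2425, 2093 and 2419 FPKM in knockdown replicates 1 to 3 and 2608, 2613 and 2503 FPKM in control replicates 1 to 3. With voom on recovered reads, or without knockdown replicate 2, 5 type I keratins were lower in place of 4. KRT10 is the first in the order on chromosome 17.

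**Figure D4:**
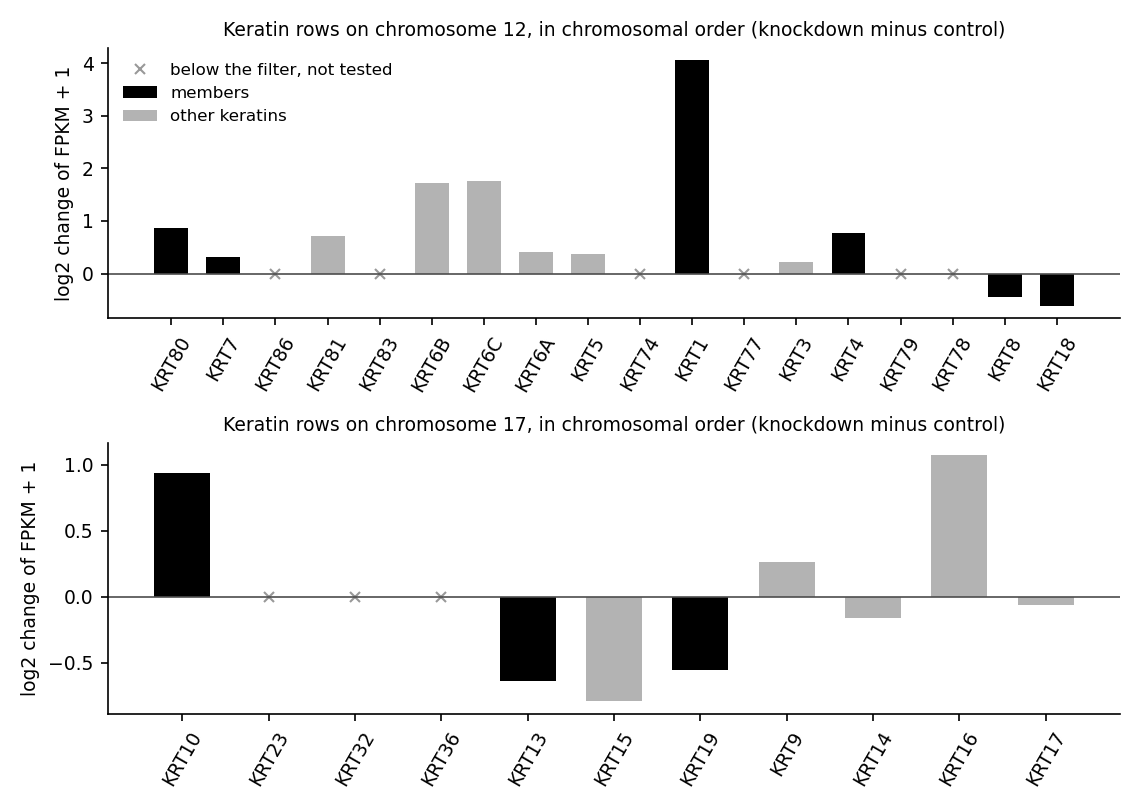
Log2 change of FPKM + 1, knockdown minus control, of the keratin rows in chromosomal order on chromosomes 12 and 17, without distances; black bars are the 9 keratins, grey bars other tested keratins, and crosses keratins below 0.5 FPKM, which were not tested. KRT8 and KRT18 on chromosome 12 and KRT13, KRT15 and KRT19 on chromosome 17 lie below 0 and passed the test; KRT14 at -0.16 and KRT17 at -0.06 also lie below 0 on chromosome 17 and did not pass.

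In order of level, control libraries ran KRT19, KRT7, KRT13, KRT8, KRT18, KRT4, KRT80, KRT10 and KRT1, and no neighbours in that order overlapped. The knockdown order was KRT19, KRT7, KRT8, KRT13, KRT4, KRT18, KRT1, KRT80 and KRT10, in which KRT19 and KRT7, KRT8 and KRT13, and KRT4 and KRT18 overlapped. KRT1 was the lowest of the 9 in control libraries and ranked 10141 of 12829 genes by mean FPKM there, against rank 1267 in the knockdown. These levels depend on the gene length used by the authors. The lengths implied by the table were 6881 bases for KRT8 and 3999 for KRT7, close to the union of all annotated exons, against 2126 and 1754 bases in the principal GENCODE transcripts. Per base of the principal transcript KRT8 was at 264 ± 3.06 FPKM in the knockdown and 360 ± 2.28 FPKM in control libraries and KRT7 at 737 ± 44.8 FPKM in the knockdown and 595 ± 8.12 FPKM in control libraries (SD, n = 3 each). On that scale KRT7 was the most abundant of the 9 in the knockdown and KRT19, at 815 ± 14.3 FPKM, in the control libraries. Ratios of mean FPKM of 1 gene between groups do not depend on its length, whereas sums and ratios over several genes do.

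Of the 8 basal and stress keratins 5 were higher and 1 lower, and with quantile normalization 7 were higher and 1 lower. Of all 20 further keratin rows, 11 passed the filter, of which 6 were higher, 1 lower and 4 not called. Over all genes tested, 57.4% passed the test, 29.5% being higher and 27.8% lower. The stress keratins KRT6B and KRT6C, which are near-identical copies of KRT6A so that the division of reads is uncertain, both rose. KRT6B was at 16.1 ± 0.467 FPKM in knockdown libraries against 4.16 ± 0.272 FPKM in control libraries (limma adjusted p = 4.74e-08). KRT6C was at 3.85 ± 0.261 FPKM in knockdown libraries against 0.430 ± 0.133 FPKM in control libraries (limma adjusted p = 3.56e-07). The control values of KRT6C rest on 13, 23 and 18 reads, and it passed the filter of 0.5 FPKM only through the knockdown libraries. Only KRT1 among all tested keratins had a larger log2 change than these, 4.06 against 1.76 for KRT6C and 1.73 for KRT6B. The hair keratin KRT81 was at 3.68 ± 0.433 FPKM in the knockdown and 1.85 ± 0.129 FPKM in control libraries (SD, n = 3 each; limma adjusted p = 8.39e-05).

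Genes that accompany KRT1 and KRT10 in the suprabasal epidermis, a list of 25 with 18 tested, were higher in 10 cases and lower in 3, with a median log2 change of 0.28 against 0.01 over all genes, of which 29.5% were higher and 27.8% lower. When genes averaging under 5 FPKM were left out, 8 remained, of which 4 were higher and 2 lower. IVL, the involucrin of the cornified envelope, was at 5.55 ± 0.510 FPKM in the knockdown and 2.61 ± 0.146 FPKM in control libraries (limma adjusted p = 1.41e-05). KRTDAP, a secreted protein of suprabasal cells, was at 1.46 ± 0.825 FPKM in the knockdown and 0.248 ± 0.129 FPKM in control libraries (limma adjusted p = 0.00217; SD, n = 3 each). KRTDAP rests on 7, 12 and 22 reads in knockdown replicates 1 to 3 and 1, 3 and 3 in control replicates 1 to 3. It passed the filter of 0.5 FPKM only through the knockdown libraries. Of 17 tested genes of mucosal and simple epithelia 7 were higher and 7 lower, against 29.5% higher and 27.8% lower of all genes. Their summed level was between 906 and 930 FPKM in knockdown and between 1118 and 1173 FPKM in control libraries, and the largest 2 called changes were rises. SPRR3, a cornified envelope protein of mucosa, was at 3.21 ± 0.329 FPKM in the knockdown and 0.305 ± 0.162 FPKM in control libraries (limma adjusted p = 1.14e-06). SPRR3 also passed the filter only through the knockdown libraries, on 56, 68 and 72 reads against 5, 10 and 4 in control libraries. The adhesion molecule CEACAM6 was at 2.28 ± 0.110 FPKM in the knockdown and 0.510 ± 0.117 FPKM in control libraries (limma adjusted p = 3.99e-06).

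Proteins that anchor or bind keratin filaments passed at a share near that of all genes, 55.6% of 18 against 57.4%, with 8 higher and 2 lower. DSP, the desmoplakin that ties keratins to desmosomes, was at 96.8 ± 8.37 FPKM in the knockdown and 52.4 ± 1.00 FPKM in control libraries (limma adjusted p = 2.75e-06). The small heat shock protein gene HSPB1 was at 426 ± 75.5 FPKM in the knockdown and 905 ± 3.86 FPKM in control libraries (SD, n = 3 each; limma adjusted p = 2.63e-05). Among 30 tested transcription factors known to act on keratin genes, 14 were higher and 4 lower, with a median log2 change of 0.15. The 18 that passed are a share near the 57.4% of all genes. KLF4, which promotes epidermal differentiation, was at 47.3 ± 2.63 FPKM in the knockdown and 27.2 ± 0.721 FPKM in control libraries (limma adjusted p = 2.22e-06). After scaling every library to one FPKM total, 23 of the 30 were higher and 2 lower, and 13 of the 18 binding proteins higher and 1 lower.

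The genes most like a keratin in their profile were found by the root-mean-square difference of mean-centred log2(FPKM + 1) over the 6 libraries. This measure follows the size of the change on the log2(FPKM + 1) scale, so the gene with the largest rise is compared with the next largest. For KRT1 the nearest were DHRS2, TXNIP and SPRR1A, the genes of rank 2, 3 and 4 by rise, at differences of 0.67, 0.83 and 0.92. For KRT10 they were APOBEC3A, ALPP and DKK1, at 0.076, 0.077 and 0.079, although APOBEC3A, a gene of low level, was 3.93-fold higher in mean FPKM and KRT10 2.06-fold. APOBEC3A rests on 66, 52 and 67 reads in the knockdown and 19, 16 and 14 in control libraries. With a control mean of 0.477 FPKM, APOBEC3A passed the filter of 0.5 FPKM only through the knockdown libraries. For KRT13 they were NLRP2, NCLN and RBM14, at 0.022, 0.024 and 0.026. DKK1, a secreted WNT inhibitor, was at 63.9 ± 3.10 FPKM in the knockdown and 31.0 ± 1.13 FPKM in control libraries (SD, n = 3 each).

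**Figure D5:**
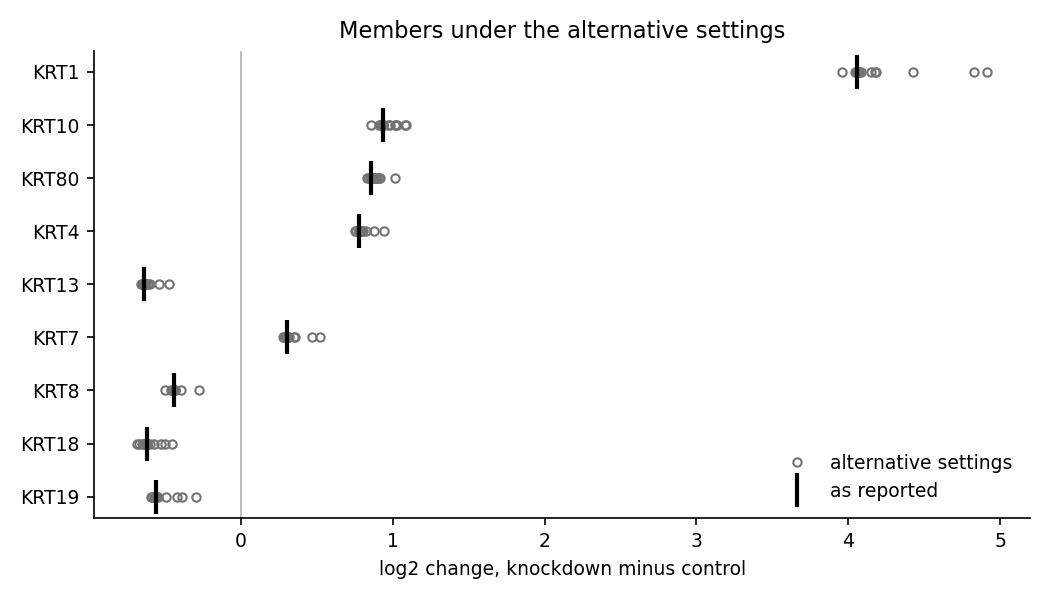
Log2 change, knockdown minus control, of the 9 keratins as reported (black bar) and under 16 alternative settings (open circles). Every keratin stays on its side of 0; KRT7 ranges from 0.28 to 0.52 and KRT19 from -0.59 to -0.30.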

How the data were processed

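Total RNA was extracted with TRIzol and libraries were made with a TruSeq RNA kit, per the labels' protocols. The authors deposited FPKM values for each gene and library; HISAT2 2.2.1 and GRCh38 are named in the submitters' processing notes. The sources used here do not name the counter, the annotation or the strand setting. Every gene in the table had a mean of at least 0.1 FPKM.

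The deposited values of each gene share a smallest step, and dividing by it gave whole reads for 12829 genes (100%) within 0.004 reads. A divisor common to all libraries of a gene cannot be seen. Of the genes matched to GENCODE v29, 85.4% had the exon-union length that the table implies, within 10%.

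Knockdown was compared with control with limma 3.58.1 (R 4.3.3) applied to log2(FPKM + 1), with group as the only factor, a mean-variance trend, two-sided tests and Benjamini-Hochberg adjustment over the 11214 genes averaging 0.5 FPKM or more. The filter took the mean of all 6 libraries, so a gene could pass through the group where it is high. Fold changes are ratios of mean FPKM. IQGAP2, below the filter, was tested with IQGAP2 added. Alternatives are listed with their effect in the closing section. The pseudocount of 1 understates changes of low genes.

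Members and gene lists were chosen with earlier results of these data known. Named were the members, IQGAP2, other keratins, the 2 largest called changes of each list and the 3 nearest profiles of KRT1, KRT10 and KRT13. For 1 list, 1 of these genes is not reported here. COL1A2 and COL3A1 are named as marker genes without a value.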

Additional observations from a re-analysis of the deposited data

How the results depend on the processing

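All 9 keratins kept their direction and passed the test under all 16 alternatives run: pseudocounts of 0.1 and 0.5, no filter, a mean of at least 5 FPKM, a common sum, quantile normalization, no mean-variance trend, the length trend removed, voom on recovered reads with library sizes by the median of ratios (chosen after seeing the data), the replicate number as a block, and each library left out. The highest adjusted p was 0.00758, for KRT7 without control replicate 1. KRT1, at 1.14 FPKM in control libraries, cleared the mean of at least 5 FPKM only through the knockdown libraries. Under a common sum the median of all genes tested was 0.14, against 0.01, and 1838 genes were lower against 3121 and 4864 higher against 3313. It put the log2 change of the sums at 2.06 for suprabasal, -0.088 for mucosal and -0.083 for simple members and 0.20 for all keratin rows, against 1.89, -0.26, -0.25 and 0.03. The same numbers paired no libraries (correlations of deviations -0.067, -0.038 and 0.019), and with the replicate block 3167 genes were higher and 3024 lower, the 9 keratins with 5 and 4 as before.

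Leaving out 1 library gave 2779 to 3250 genes higher and 2678 to 3212 lower. It gave IQGAP2 a log2 change of -0.23 to -0.22, its call being lost without knockdown replicate 3 or any control library (adjusted p up to 0.0556). List counts without 1 library ran over 1 to 2 basal and stress keratins lower, 1 to 3 other keratins higher, 1 to 2 binding proteins lower and 2 to 4 transcription factors lower. Among other settings, voom put 2 basal and stress keratins lower, and quantile normalization put 7 of them higher against 5. Other keratins higher numbered 5 with no filter, 0 at a mean of at least 5 FPKM, 3 with a common sum and 3 with the length trend removed. At 5 FPKM, 4 suprabasal differentiation genes were higher. Binding proteins lower numbered 1 with a pseudocount of 0.1, no filter, a common sum, quantile normalization or no trend, and 13 were higher with a common sum. Transcription factors numbered 23 higher and 2 lower with a common sum. Where a count differs, the cause was not tested. edgeR, DESeq2 and TMM-scaled levels, planned on recovered reads, were not run; voom was run on those reads in their place. The depth limits KRT1 in control libraries, at 30 to 49 reads.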

Other observations

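Of the 9 keratin rows below the filter of 0.5 FPKM, KRT23, a type I keratin, was at 0.211, 0.333 and 0.370 FPKM in knockdown replicates 1 to 3 and at 0.0225, 0.0730 and 0.0244 FPKM in control replicates 1 to 3, on 8, 15 and 15 reads against 1, 3 and 1. KRT79 was at 0.210, 0.202 and 0.393 FPKM in knockdown and at 0.0256, 0.0276 and 0.139 FPKM in control libraries. KRT36, a hair keratin, was at 0.0805, 0.135 and 0.0751 FPKM in knockdown and at 0.240, 0.481 and 0.0744 FPKM in control libraries, so that its groups overlapped. These rows were chosen after their values were seen and were not tested.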
